A study of Homo sapiens with 2 samples.

Results

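Internal coding exons that are missing from some transcripts of their gene were followed in a 5-fluorouracil resistant colorectal cancer clone and its parent. The genome annotation of the deposited tables cuts each exon into exon regions wherever a transcript has an alternative splice site. A region was taken when all its bases were coding, when it lay in neither the first nor the last exon of its gene, and when fewer Ensembl transcripts held it than held the best supported region of the gene. It also needed at least 2000 bases of reads over both libraries, in a gene with at least 200 reads over both. These rules gave 23375 exon regions in 4474 genes, of 277804 exon regions in 36953 genes in all. They come from 172347 internal coding regions, of which 48865 were below the highest transcript count of their gene at any coverage. By length, 9636 were divisible by 3 and 13739 were not. The comparison set is the 77363 internal coding regions held by the highest number of transcripts of their gene, under the same coverage and gene minima, called constitutive here.

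Polyadenylated RNA of MIP/5FU and of MIP101 was sequenced, 1 library of each. MIP/5FU is a single clone, selected from MIP101 by passage in rising 5-fluorouracil, with a 10-fold higher IC50 for the drug, and was maintained in 5 µM of it. MIP101 is an established colorectal cancer line grown from a liver metastasis and is sensitive to the drug. Both cultures were without drug or antibiotics for about 48 hours before RNA was isolated. With 1 library per line there is no replicate check for any difference below. All intervals cover counting error alone, and since the libraries were amplified by PCR and carried no molecular tags, reads need not be separate molecules.

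Alternative splicing joins different sets of exons of one gene into different messenger RNAs. When a cassette exon, which can be kept or left out, has a length divisible by 3, leaving it out removes amino acids but keeps the downstream reading frame. When the length is not divisible by 3, leaving it out shifts the frame, which often brings an early stop codon and decay of the transcript. Mutually exclusive exons are neighbours of which a transcript carries one or the other. Exchanging them keeps the frame when their lengths are equal or differ by a multiple of 3. An exon can also be absent from a transcript without being skipped, because that transcript starts downstream of it or ends upstream of it.

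The exons on which the results below turn are shown 5′ to 3′ on the transcribed strand, as read from GENCODE transcripts (release 29, GRCh38), after matching exons of the same Ensembl gene by their lengths and spacing. In the 6 exons of the pairs, capitals mark the bases that differ between the partners at the same position. These pairs are shown because one exon of each replaces the other. PKM2 encodes muscle pyruvate kinase, whose exons 9 and 10 define the M1 and M2 forms. RAB6A encodes a small GTPase of Golgi traffic, and ATE1 an enzyme that adds arginine to protein amino termini.
PKM2 exon 9a, chr15:72203022-72203188, minus strand: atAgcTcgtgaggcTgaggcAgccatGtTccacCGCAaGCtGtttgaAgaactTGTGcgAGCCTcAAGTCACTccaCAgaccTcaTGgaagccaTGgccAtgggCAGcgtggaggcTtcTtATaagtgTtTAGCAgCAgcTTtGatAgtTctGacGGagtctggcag
PKM2 exon 10a, chr15:72202454-72202620, minus strand: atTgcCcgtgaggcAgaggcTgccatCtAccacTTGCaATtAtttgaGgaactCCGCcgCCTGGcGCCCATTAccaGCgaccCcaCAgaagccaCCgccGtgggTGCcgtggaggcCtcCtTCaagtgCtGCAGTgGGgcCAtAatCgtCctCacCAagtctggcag
RAB6A exon 4a, chr11:73718785-73718890, minus strand: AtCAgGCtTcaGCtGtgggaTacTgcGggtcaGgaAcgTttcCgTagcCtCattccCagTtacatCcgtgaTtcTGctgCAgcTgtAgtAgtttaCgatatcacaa
RAB6A exon 5a, chr11:73718613-73718718, minus strand: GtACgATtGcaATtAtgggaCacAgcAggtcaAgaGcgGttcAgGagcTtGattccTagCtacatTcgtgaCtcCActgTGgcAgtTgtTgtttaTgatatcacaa
ATE1 exon 8a, chr10:121899866-121899994, minus strand: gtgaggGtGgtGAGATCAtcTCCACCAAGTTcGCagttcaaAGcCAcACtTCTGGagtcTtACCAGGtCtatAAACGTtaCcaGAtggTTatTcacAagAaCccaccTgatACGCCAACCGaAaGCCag
ATE1 exon 9a, chr10:121898841-121898969, minus strand: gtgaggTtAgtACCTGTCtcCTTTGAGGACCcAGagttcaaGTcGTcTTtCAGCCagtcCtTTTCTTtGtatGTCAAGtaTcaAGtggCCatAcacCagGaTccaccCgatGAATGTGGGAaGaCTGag

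The next exons are cassettes whose use differed between the libraries by junction reads, by coverage or by both. Capitals mark their last 3 bases, the exon side of the 5′ splice site. FER1L3 encodes myoferlin, a membrane repair protein. PPFIBP1 encodes liprin beta 1, CTNND1 the cadherin partner p120 catenin, and ECT2 an exchange factor for small GTPases in cytokinesis. CDC45L encodes a part of the replicative helicase, MBNL1 a splicing regulator, and MYO6 a myosin that moves toward the minus end of actin. APBB2 encodes an adaptor that binds the amyloid precursor protein, and PHPT1 a phosphohistidine phosphatase. PICALM encodes a clathrin assembly protein.
FER1L3 exon 17a, chr10:93392917-93392955, minus strand: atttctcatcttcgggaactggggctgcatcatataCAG
PPFIBP1 exon 20a, chr12:27677064-27677096, plus strand: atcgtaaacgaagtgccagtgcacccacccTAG
CTNND1 exon 22a, chr11:57815915-57816001, plus strand: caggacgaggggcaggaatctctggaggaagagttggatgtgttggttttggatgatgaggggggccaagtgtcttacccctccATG
ECT2 exon 4a, chr3:172755483-172755575, plus strand: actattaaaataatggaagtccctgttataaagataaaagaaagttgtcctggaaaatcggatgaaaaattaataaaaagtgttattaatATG
CDC45L exon 5a, chr22:19482690-19482827, plus strand: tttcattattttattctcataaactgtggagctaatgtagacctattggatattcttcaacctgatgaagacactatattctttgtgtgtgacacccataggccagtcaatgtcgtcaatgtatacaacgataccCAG
MBNL1 exon 6a, chr3:152446704-152446757, plus strand: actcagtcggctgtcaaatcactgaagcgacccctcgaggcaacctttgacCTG
MYO6 exon 29a, chr6:75894814-75894840, plus strand: cttggattcctatccggtaacttcTAA
MYO6 exon 30a, chr6:75895231-75895260, plus strand: aaatgatggaacaagacccaaaatgacACC
APBB2 exon 9a, chr4:40935077-40935139, minus strand: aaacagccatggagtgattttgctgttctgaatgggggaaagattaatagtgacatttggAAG
PHPT1 exon 4a, chr9:136850506-136850560, plus strand: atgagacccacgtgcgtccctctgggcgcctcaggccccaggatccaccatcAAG
PICALM exon 18a, chr11:85978070-85978093, minus strand: aatggcatgcattttccacaaTAC

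Reads assigned to genes numbered 109693681 in MIP/5FU and 200141071 in MIP101. A member had a median of 178 read equivalents, which are its coverage divided by the mean bases per read, in MIP/5FU and 340.2 in MIP101. Of the 11 colon epithelium genes found in the tables, 9 reached an RPM (reads scaled to the gene reads of the library) of 1 in both libraries, and CDX1 was below 1 in both. LGALS4 was at 0.72 in MIP/5FU and 1.79 in MIP101. The epithelial splicing regulators ESRP1 and ESRP2, listed as RBM35A and RBM35B, summed to 193 RPM in MIP/5FU and 159.9 in MIP101. The summed levels of 6 blood, 7 hepatocyte and 8 endothelial and fibroblast markers lay between 2.75 and 17.0 RPM in MIP/5FU and between 2.04 and 21.1 in MIP101. Among these, HBB, CDH5, COL1A2, LUM, APOA1 and TTR were listed at 0 in both libraries. Others were read: PDGFRB stood at 16.3 RPM in MIP/5FU and 12.3 in MIP101, SERPINA1 at 3.90 and 6.72, and LYZ at 1.71 and 1.22. COL3A1 differed between the lines, at 0.35 RPM in MIP/5FU and 8.29 in MIP101.

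Most members were whole exons, and most of those were absent from some transcripts without being skipped by any. Whole exons made up 81.9% of members. Of the 19134 whole exons, 6027 were spanned by an exon junction of an Ensembl transcript and are called spanned exons here. These include annotated cassettes, and also other exons that a junction passes over, such as UGT1A8 exon 7a, a first exon of another transcript. The other 13107 were spanned by none. A further 4241 members were parts of an exon, bounded by an alternative splice site.

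A length divisible by 3 was more frequent among spanned exons than in the other classes. Of the spanned whole exons, 51.5% had a length divisible by 3, against 38.8% of the whole exons with no spanning junction, 34.1% of the parts of exons and 37.8% of the constitutive regions in the same genes. Over all members the value was 41.2%. The median length was 117 nt in spanned exons and 125 nt in exons not spanned, against 120 nt in constitutive regions of the same genes. Exons under 31 nt were 890 of the members, and 130 of these were whole exons.

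Base composition and splice site letters were close to those of constitutive exons, while fewer species were recorded for members. Of whole-exon members, 92.8% were matched to a GENCODE exon, as were 96.4% of constitutive exons in the same genes. Their median GC content was 47.98% in members, 50.4% in the spanned ones, and 47.4% in constitutive exons. The last base was a G in 80.6% of members and in 79.9% of constitutive exons. The deposited annotation counts the species whose mRNAs or ESTs show each region, and its median was 7 for members and 9 for constitutive regions of the same genes. No such species was recorded for 9.38% of members, against 4.76% of constitutive regions.

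The share of exons that count as missing from some transcripts differed between chromosomes, and so did the number of annotated transcripts. Among internal coding regions of genes with at least 200 reads, the share below the highest transcript count was 43.6% on chromosome 9 and 41.2% on chromosome 6, against 18.2% on chromosome 15 and 19.9% on chromosome 18. The mean number of Ensembl transcripts per protein-coding gene was 3.18 and 2.89 on chromosomes 9 and 6, against 2.02 and 2.12 on chromosomes 15 and 18. The part of annotation depth in the membership was not tested.

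The level of each member was compared with the median coverage per base of the constitutive regions of its gene, in each library by itself. The coverage minimum had already left out poorly read regions, since 48865 regions met the other region rules at any coverage, so these levels describe the better read ones. In the 19333 members whose gene had at least 2 constitutive regions, the median level was 0.98 in both MIP/5FU and MIP101. Members below 25% of their gene made up 4.55% in MIP/5FU and 4.52% in MIP101, against 0.283% and 0.286% of the constitutive regions in the same genes. Of them, 760 were below 25% in both libraries and 233 in one library. Across members, log2 levels of MIP/5FU and MIP101 had a Pearson's r of 0.96 and a Spearman's rho of 0.88 over 19332 members with reads in both. Exons of one gene share their denominator and both libraries share exon length and base composition, so this is a description.

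Low levels were most frequent among spanned exons divisible by 3, followed by parts of exons. Below 25% were 9.29% of spanned exons divisible by 3 in MIP/5FU and 9.33% in MIP101. For spanned exons of other length these shares were 5.37% and 5.84%, and for exons not spanned 2.02% and 1.81%. Parts of exons were at 7.88% in MIP/5FU and 7.99% in MIP101. The median level of spanned exons divisible by 3 was 0.92 in MIP/5FU and 0.91 in MIP101, against 0.97 and 0.98 for those of other length.

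**Figure D1:**
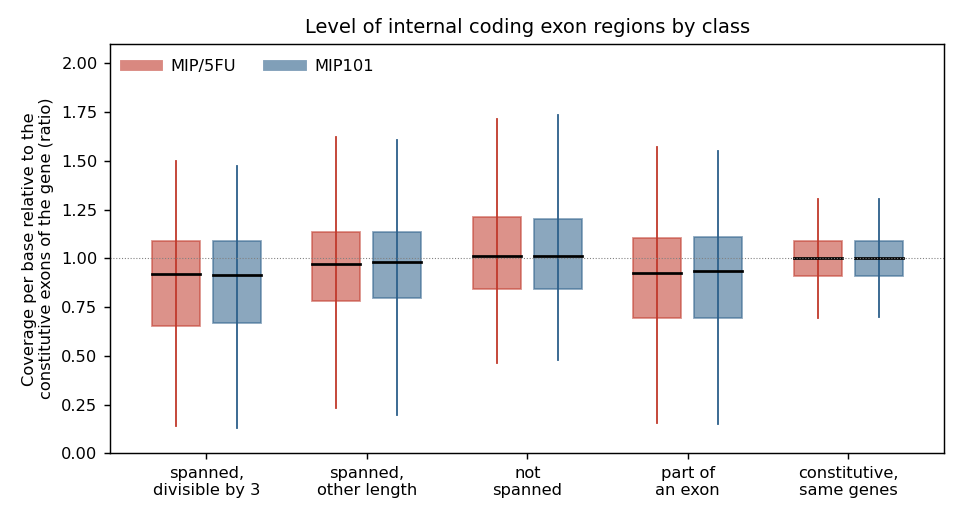
Level of exon regions relative to the constitutive regions of their gene (ratio of coverage per base, linear axis) by class, MIP/5FU in red and MIP101 in blue; boxes run over the middle 50% of regions with the median as a black line, and vertical lines run between the percentiles 5 and 95. Medians lie near 1 in every class, and the lower lines of the spanned exons and of parts of exons reach 0.14 to 0.23 in MIP/5FU and 0.13 to 0.20 in MIP101, against about 0.70 in constitutive regions of both.

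Rarely annotated exons also had lower levels relative to their gene. Members in up to 20% of the highest transcript count had a median level of 0.34 in MIP/5FU and 0.36 in MIP101. At 20 to 40% the medians were 0.87 and 0.88, and at 80 to 100% they were 1.00 and 1.01. Members seen in no other species had medians of 0.80 in MIP/5FU and 0.81 in MIP101, with 22.2% and 22.8% of them below 25%. Those seen in more than 10 species had a median of 1.01 in both, with 1.30% and 1.18% below 25%.

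The lowest members stood far below the level of their gene in both lines, though each had passed the coverage minimum. In the class divisible by 3, the 5 lowest were BSG exon 3a, ANK3 exon 41a, RPL35 exon 4a, UGT1A8 exon 8a and RUSC1 exon 2b. Exon 3a of BSG, the immunoglobulin family protein basigin, stood at 0.0037 of its gene in MIP/5FU and 0.0036 in MIP101. It had 72.9 and 102.6 read equivalents, in a gene of 77325 and 109691 reads. ANK3 exon 41a, a giant exon of 7812 nt in the gene of ankyrin G, stood at 0.0049 in MIP/5FU and 0.0045 in MIP101. In the other class the 5 lowest were PTMA exon 3b, HSP90AA1 exon 2a, CTBP2 exon 4a, EIF5A exon 3a and RPL10 exon 3a. Their levels ran between 0.0019 and 0.0060 in MIP/5FU and between 0.0015 and 0.0053 in MIP101. UGT1A8 exon 8a was, by the splicing index defined further on, the only one of these 10 called as different, at 0.0024 in MIP/5FU and 0.0070 in MIP101.

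Exon junction reads gave a second measure that needs no denominator from other exons. The skipping share is the reads joining the exon before to the exon after, as a percent of these plus the mean of the inclusion junctions on either side. It was taken for whole exons with at least 20 such reads in each library, which 13526 members had. In 67.2% of them no skipping read was found in either library, against 73.7% of 56675 constitutive exons. Skipping above 5% in both libraries was found in 9.13% of members and in 1.86% of constitutive exons. By length class it was found in 14.1% of members divisible by 3 and in 5.33% of the others. Skipping prevailed, with over 50% in both libraries, in 292 members divisible by 3 and in 128 others, against 25 constitutive exons.

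A difference between the lines was counted at 10 percentage points or more with Clopper-Pearson 95% intervals that do not overlap. More skipping in MIP/5FU was counted for 26 members and less for 20, against 0.0734% and 0.0437% of all 70869 whole internal coding exons with enough reads. As a share of those measured, 0.582% of members divisible by 3 were counted and 0.156% of the others, against 0.0653% of constitutive exons. Of the 46 counted members, 34 had a length divisible by 3 and 12 were at most 60 nt long. The skipping junction was part of an Ensembl transcript for 33 of them, of mRNAs or ESTs alone for 3, and of none of these for 10.

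Among exons skipped less in MIP/5FU, CDC45L exon 5a (138 nt) had the largest difference after ATE1. Its skipping junction had 12 reads in MIP/5FU and 126 in MIP101. The upstream inclusion junction had 151 reads in MIP/5FU and 209 in MIP101, and the downstream one 88 and 98. The skipping share was 9.13% in MIP/5FU (95% interval 4.80 to 15.4) and 45.1% in MIP101 (39.2 to 51.1), so the exon was mostly kept in the clone and nearly balanced in the parent. APBB2 exon 9a (63 nt) was skipped at 20.6% in MIP/5FU and 49.1% in MIP101, with 11 and 93 skipping reads. SNRNP27 exon 5a (65 nt), of a tri-snRNP protein, was skipped at 22.7% in MIP/5FU and 46.8% in MIP101. In UBE2K exon 3a (59 nt), of a ubiquitin-conjugating enzyme, 0 skipping reads stood beside 251.5 inclusion reads in MIP/5FU, with an upper limit of 1.46%, and 67 beside 316.5 in MIP101, a share of 17.5%. The UBE2K exon was described outside the naming rule because its share in MIP/5FU was 0. Its skipping junction is part of no Ensembl transcript, mRNA or EST. The coverage indices of CDC45L, APBB2, SNRNP27 and UBE2K were 0.35, 0.52, 0.19 and 0.30, all toward more of the exon in MIP/5FU. None reached the size that counts as called, and the intervals of APBB2 and SNRNP27 include 0.

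Among exons skipped more in MIP/5FU, FER1L3 exon 17a (39 nt) differed by both measures. The skipping junction had 150 reads in MIP/5FU and 212 in MIP101. The inclusion junctions had 18 and 27 reads in MIP/5FU, against 131 and 135 in MIP101. The share was 87.0% in MIP/5FU (81.0 to 91.6) and 61.5% in MIP101 (56.1 to 66.6). Its coverage level was 0.27 of the gene in MIP/5FU and 0.74 in MIP101, and it passed the coverage minimum only through MIP101. PPFIBP1 exon 20a (33 nt) was skipped at 57.4% in MIP/5FU (49.2 to 65.3) and 32.6% in MIP101 (27.4 to 38.2), with levels of 0.43 and 0.67. PARL exon 6a (150 nt), of a mitochondrial rhomboid protease, was skipped at 39.2% in MIP/5FU and 17.0% in MIP101. SIP1 exon 9a (59 nt), of the SMN complex protein Gemin2, was skipped at 34.7% in MIP/5FU and 11.98% in MIP101, on 13 skipping reads in each.

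Of the 10 largest differences, the remaining 3 are ATE1 exon 8a, DST exon 106a and FAM35A exon 7a. DST exon 106a (111 nt), near the 3′ end of the plakin linker gene, was skipped at 48.7% in MIP/5FU and 16.4% in MIP101, with 18 and 15 skipping reads. FAM35A exon 7a was skipped at 84.1% in MIP/5FU and 57.0% in MIP101, but its upstream inclusion junction had 0 reads in both libraries. Near-identical copies of this gene may share its reads, so its values are uncertain. POM121B exon 9a and RAB6A exon 4a also had an inclusion junction without reads. For RAB6A this is the junction to exon 5a, its partner in a pair used one or the other, described below. The reads counted as skipping exon 4a there join exon 3 to exon 5, so they are reads of exon 5a. Its share is therefore a measure of the choice within the pair, with the mean of its inclusion junctions lowered by the empty one.

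The remaining counted exons had smaller differences. ECT2 exon 4a (93 nt) was skipped at 66.9% in MIP/5FU (61.2 to 72.2) and 48.5% in MIP101 (43.1 to 53.9), with 197 and 167 skipping reads. MBNL1 exon 6a (54 nt) was skipped at 30.8% in MIP/5FU and 44.4% in MIP101. CTTN exon 11a (111 nt), of the actin-binding protein cortactin, was skipped at 46.0% in MIP/5FU and 59.7% in MIP101. PICALM exon 18a (24 nt) was skipped at 17.7% in MIP/5FU and 6.73% in MIP101. AXIN2 exon 7a (195 nt), of a scaffold that limits WNT signalling, was skipped at 62.6% in MIP/5FU and 50.97% in MIP101. These 5 were picked for their genes after the values were seen.

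**Figure D2:**
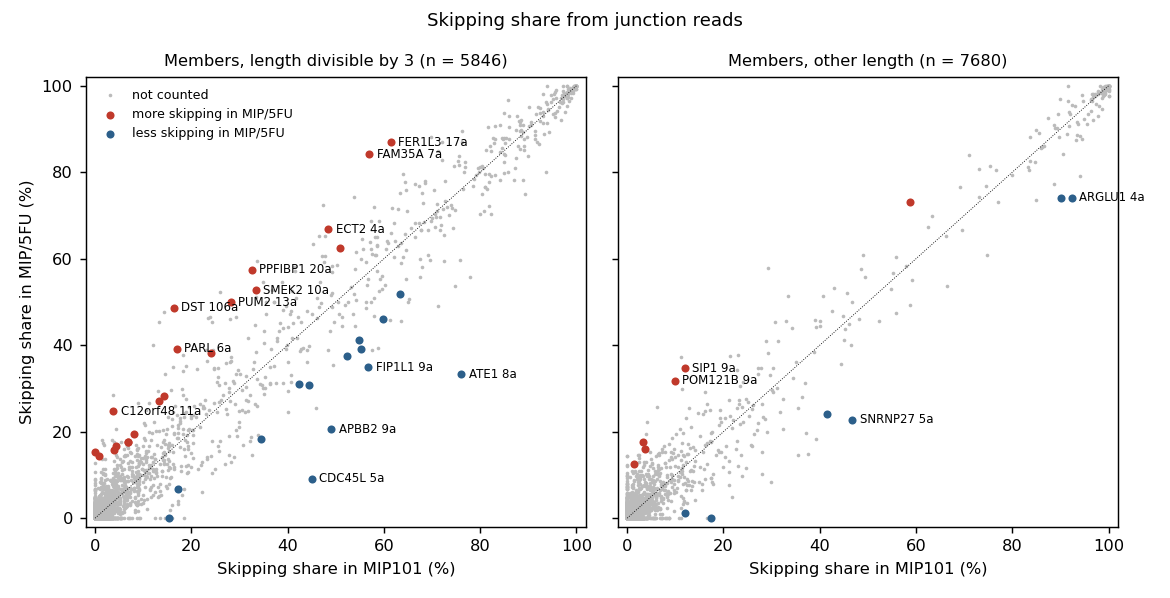
Skipping share in MIP/5FU (vertical axis, %) against MIP101 (horizontal axis, %) for members of length divisible by 3 (left, 5846 exons) and of other length (right, 7680); each point is 1 exon, red and blue points are counted differences, and labels name those of at least 18 percentage points. Most exons lie along the diagonal or near 0 in both libraries, and the counted ones number 34 on the left and 12 on the right.

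The sign of the coverage index was compared with the counted difference. In 43 of the 46, more skipping went with a lower coverage index or less skipping with a higher one. In 16 of these 43 the interval of the index excludes 0, and in 30 of the 46 it includes 0, as for ATE1 exon 8a with an index of 0.00. The exceptions in sign were in CXorf26, FAM40A and TMEM129. Both measures passed their own limit in 3, FER1L3 exon 17a, FAM35A exon 7a and PHPT1 exon 4a. PHPT1 exon 4a (55 nt) was skipped at 73.9% in MIP/5FU (64.5 to 82.0) and 90.1% in MIP101 (86.0 to 93.3), and its level was 0.49 in MIP/5FU and 0.20 in MIP101. Its skipping junction had 78 reads in MIP/5FU and 255 in MIP101. The inclusion junctions were uneven, with 4 reads upstream and 51 downstream in MIP/5FU, against 12 and 44 in MIP101. The difference in its skipping share therefore rests on the downstream junction.

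A skipping junction can also leap over several exons at once. Counting every junction that spans the exon, an alternative chosen after the data were seen, gave 50 members with more skipping and 33 with less. It added exons 29a (27 nt) and 30a (30 nt) of MYO6. They were skipped at 67.1% (56.0 to 76.9) and 60.4% (49.6 to 70.5) in MIP/5FU, against 34.1% (26.9 to 42.0) and 23.5% (17.5 to 30.4) in MIP101. The coverage indices of these neighbouring exons were -0.91 (-1.97 to 0.00) and -0.83 (-1.68 to -0.07). It also added CTNND1 exon 22a, skipped at 77.6% in MIP/5FU (72.7 to 82.0) and 88.3% in MIP101 (85.2 to 90.9). Shares given above also rose by this count. UBE2K exon 3a then had 6 skipping reads in MIP/5FU, a share of 2.31%, against 20.2% in MIP101. PICALM exon 18a was then skipped at 38.0% in MIP/5FU and 20.9% in MIP101.

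Neighbouring exons of equal length, each spanned by an Ensembl junction and never joined to each other in one, were taken as pairs used one or the other. This search was made after the first values were seen and found 14 pairs in 14 genes, with at least 1 member each. In 12 of them the share of the first exon among the reads of the pair differed by less than 5 percentage points between the lines. In the 12 pairs that were matched to sequence, the partners shared between 44.96% and 70.8% of bases at the same position, against 25% for unrelated bases used equally.

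RAB6A was the pair that differed most. Its exon 4a had 322 read equivalents in MIP/5FU and 927 in MIP101, and exon 5a had 418 and 548. Exon 4a made up 43.5% of the pair in MIP/5FU (95% interval 39.9 to 47.1) and 62.8% in MIP101 (60.3 to 65.3), so the prevailing exon differed between the lines. Its junctions gave 42.9% in MIP/5FU and 58.8% in MIP101, and no read joined the exons to each other in either library. The indices were -0.62 for exon 4a (counting interval -0.94 to -0.31) and 0.52 for exon 5a (0.20 to 0.83). The exons shown above share 70.8% of their bases.

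In PKM2 the M2 exon 10a prevailed in both lines. Exon 9a, the M1 exon, made up 4.97% of the pair in MIP/5FU (4.70 to 5.26) and 4.45% in MIP101 (4.27 to 4.64). By junctions it made up 2.82% in MIP/5FU (2.46 to 3.21) and 2.44% in MIP101 (2.21 to 2.69), so the intervals overlap by junctions and not by coverage. Exon 10a was covered at 0.79 of the gene in MIP/5FU and 0.78 in MIP101, and exon 9a at 0.041 and 0.036. In ATE1, exon 8a made up 54.5% of the pair by coverage in MIP/5FU (47.8 to 61.1) and 47.0% in MIP101 (42.9 to 51.2). By junctions it made up 54.5% in MIP/5FU and 39.1% in MIP101. The skipping share of ATE1 exon 8a, 33.3% in MIP/5FU and 76.1% in MIP101, was the largest counted difference, but its index was 0.00. That share takes the junction between exons 8 and 9 as inclusion, which had 7 reads in MIP/5FU and 4 in MIP101 and lies in no Ensembl transcript.

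The shares of other pairs were closer together. MAPK14, the stress kinase p38 alpha, had 65.4% exon 9a in MIP/5FU and 62.7% in MIP101. MAPK9, the kinase JNK2, had 6.62% exon 6a in MIP/5FU and 5.82% in MIP101, and by junctions 6.28% and 4.08%. DNM2, the membrane-pinching GTPase dynamin 2, had 78.95% exon 11a in MIP/5FU and 77.5% in MIP101. CALU had 79.8% exon 3a in MIP/5FU and 80.3% in MIP101. For each of these 4 the 95% intervals of the lines overlap, which does not show that the shares were equal.

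**Figure D3:**
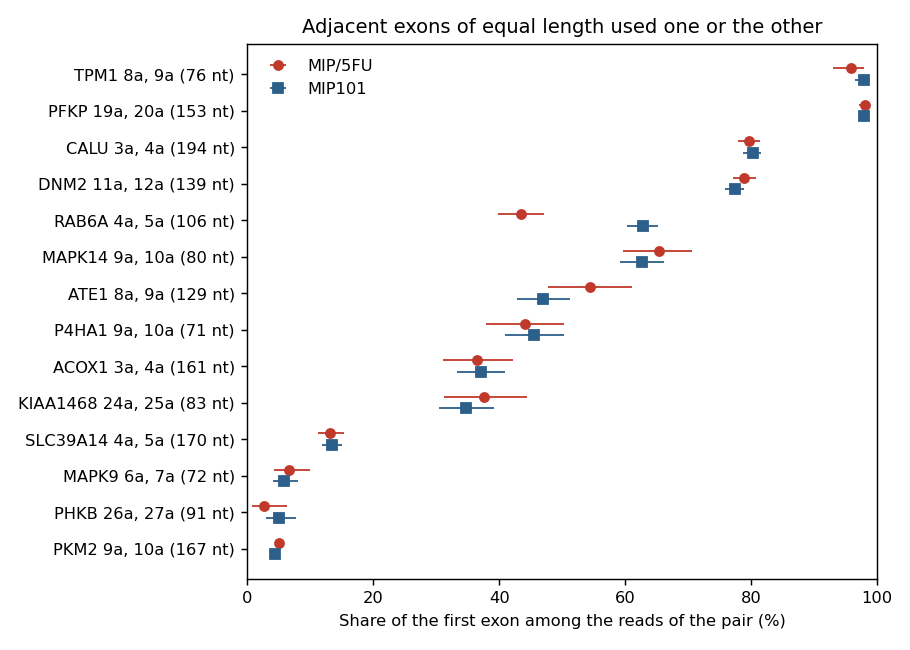
Share of the first exon among the read equivalents of each pair (%, horizontal axis) in MIP/5FU (red circles) and MIP101 (blue squares), with Clopper-Pearson 95% intervals; labels give the gene, the exons and their common length. RAB6A stands at 43.5% in MIP/5FU and 62.8% in MIP101, ATE1 at 54.5% and 47.0%, and the other 12 pairs differ by under 5 percentage points.

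The splicing index compares the lines by coverage. It is the log2 ratio, MIP/5FU over MIP101, of the read equivalents of a region minus that of the reads of its gene, so gene level and library size cancel. Members were called at an index of at least 1 in size, a 2-fold difference, with a counting interval (nominally 0.001 of the probability outside it) that excludes 0, in regions with at least 50 read equivalents over both libraries. Of 23355 members that could be measured, 50 were called higher in MIP/5FU and 58 lower. Over all 139703 exon regions measured, 0.157% were called higher and 0.109% lower, and of constitutive regions 0.0194% and 0.0517%, or 0.0712% for both directions. The median index was -0.03 over members and over constitutive regions of the same genes, and -0.01 over all regions. Members within 0.5 of 0 made up 95.7%, against 98.2% of constitutive regions in the same genes.

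The called members came from 52 genes and fell into 2 patterns. In 8 genes with 3 or more called members, 60 were called, mostly in runs of neighbouring exons. The other 44 genes had 48 called members. Of the spanned whole exons, 30 of 3101 divisible by 3 were called (0.967%), 15 in each direction, and 8 of 2917 of other length (0.274%), 4 in each direction. The 30 include UGT1A8 exons 7a and 8a. Of exons not spanned, 64 of 13100 were called (0.489%). Over all exon regions of any kind, 0.266% were called in both directions together, and spanned exons of other length stood close to that. They stood above the constitutive regions of the same genes, of which 0.0909% were called.

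LAMA3, DST, AP000751.4, AKAP7, MR1, NEBL and OSBPL9 were among these 8 genes. In LAMA3, of the laminin alpha 3 chain, 23 of 24 members between exons 14 and 39 were called lower, at a median index of -2.02 over the 24. The 10 constitutive regions of its exons 2 to 12 had a median of -2.28, and the 36 between exons 41 and 76 one of 0.42. Along DST, the 27 members between exons 10 and 65 had a median index of 1.01, 11 of them called higher, and the 42 beyond had -0.19. The called DST exons lie in exons 13 to 15 and 52 to 63. The 20 constitutive regions of DST within exons 10 to 65 had a median of 0.79, with 4 called higher. With the median of constitutive regions as the gene ratio, 0 of the 11 DST members were called, at indices between 0.23 and 0.60, while all 23 LAMA3 members were.

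The clone had relatively more of the 5′ exons of AP000751.4, a gene listed only by its clone-based name. All 9 members of its exons 2 to 10 were called higher, with indices between 1.28 and 1.73, while 7 members of exons 12 to 22 lay between -0.24 and 0.06. The 9 members summed to 599 read equivalents in MIP/5FU and 1013 in MIP101, within a gene of 14045 reads in MIP/5FU and 69542 in MIP101. OSBPL9, of an oxysterol-binding protein relative, showed the opposite pattern. Its 3 called members in exons 4 to 7 had 94.2 read equivalents in MIP/5FU and 541.5 in MIP101, with indices between -1.72 and -1.46. Its 8 other members, from exon 10 on, lay between -0.14 and 0.13.

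All 5 measured members of AKAP7, a protein kinase A anchor, had an index below 0, and 4 were called, between -1.28 and -1.15. The other lay at -0.93. AKAP7 had no measured constitutive region to compare them with, so a shift of these exons alone cannot be told from one of its whole coding part. All 3 members of MR1, which presents vitamin metabolites to T cells, were called lower, on 1.96 to 4.195 read equivalents in MIP/5FU and 132 to 141 in MIP101. In MR1 the 2 constitutive regions had a median index of -1.88. The 3 called NEBL members, of the actin-binding protein nebulette, had indices between 1.23 and 1.31, beside 0.63 for its 4 constitutive regions. With the median of those as gene ratio, 0 of the 3 were called.

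**Figure D4:**
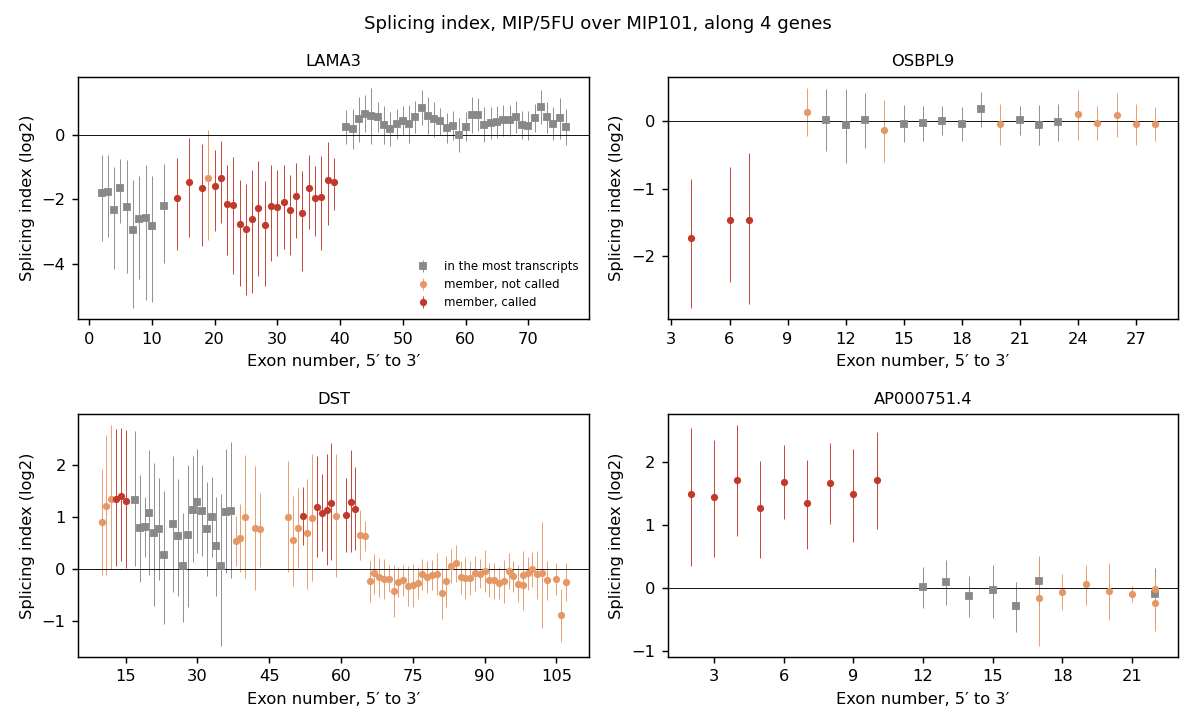
Splicing index (log2, MIP/5FU over MIP101) by exon number along LAMA3, OSBPL9, DST and AP000751.4; grey squares are regions in the most transcripts, orange points members not called, red points called members, and bars the counting intervals of the index. Red points form a block of neighbouring exons below 0 in LAMA3 and OSBPL9 and above 0 in AP000751.4, and lie in exons 13 to 15 and 52 to 63 of DST, above 0, while the 3′ exons lie near 0 or, in LAMA3, at a median of 0.42.

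Where the gene had 500 or more reads in each library, the highest called members were exons 2a and 3a of PHLDB2 and 3a of DOK7. Further ones were exons 4a, 10a, 6a, 8a and 2a of AP000751.4 and INADL exon 34a. PHLDB2 exon 2a (461 nt; hg18 chr3:112909463-112909923) had 42.9 read equivalents in MIP/5FU and 88.4 in MIP101, while its gene had 794 reads in MIP/5FU and 11459 in MIP101. The exon stood at 0.64 of its gene in MIP/5FU and 0.087 in MIP101, at an index of 2.82 (1.85 to 3.71). DOK7 exon 3a (231 nt; hg18 chr4:3444931-3445161), of an adaptor of the muscle kinase MuSK, had 106.7 read equivalents in MIP/5FU and 39.5 in MIP101. Its index was 2.19 (1.32 to 3.17). DOK7 exon 3a passed the coverage minimum through MIP/5FU, where it was high, and would not have passed it on MIP101 alone. Among members called higher, the same holds for SCRIB exon 36a, DST exons 55a and 62a, and NEBL exons 19a and 20a. INADL exon 34a (90 nt), of a scaffold of apical polarity, stood at 0.22 of its gene in MIP/5FU and 0.082 in MIP101.

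The lowest were exon 3a of NALP12, exons 25a, 28a, 24a, 26a, 34a, 32a and 27a of LAMA3, UGT1A8 exon 7a and PALLD exon 11a. All of these passed the coverage minimum through MIP101, where they were high, and would not have passed it on MIP/5FU alone. The same holds for every called member of LAMA3, OSBPL9 and MR1. It also holds for FER1L3 exon 17a, LPIN1 exon 8a, UTX exon 14a, ARFIP1 exon 4a, UGT1A8 exon 8a and AKAP7 exons 3a, 5a and 6a. NALP12 exon 3a (1702 nt) had 2.11 read equivalents in MIP/5FU and 161 in MIP101, at an index of -4.99 (-11.0 to -2.69). Its level was 1.15 of the constitutive regions of its gene in MIP101. In MIP/5FU it had no level, because the median of those regions was without coverage. The low coverage in MIP/5FU was thus not limited to this exon. UGT1A8 exon 7a (867 nt), a first exon of another transcript that the numbering places inside the gene, had 32.5 in MIP/5FU and 604 in MIP101. PALLD exon 11a (343 nt; hg18 chr4:169869307-169869649), of the actin-bundling protein palladin, had 6.58 read equivalents in MIP/5FU and 52.2 in MIP101, at an index of -2.55 (-5.21 to -0.85). The LAMA3 exons had indices between -2.92 and -2.27. IFT172 exon 22a, added after its value was seen, had 0 read equivalents in MIP/5FU and 108 in MIP101. Against a floor of 3 read equivalents per library it was at least 2.73-fold lower relative to its gene. The 2 constitutive regions of IFT172 had a median index of -3.27, so the low value was not limited to this exon, whose coverage came from MIP101 alone.

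Called cassettes differed in both directions and at many levels of use. Exon 22a of CTNND1 (87 nt) had 257 read equivalents in MIP/5FU and 180 in MIP101, at levels of 0.34 and 0.16 of the gene. Its index was 1.07 (0.60 to 1.54), while exon 18a of the same gene had an index of 0.03. BIN1 exon 14a (108 nt), of a membrane-bending protein, stood at 0.16 in MIP/5FU and 0.062 in MIP101. SRPK1 exon 14a (93 nt), of a kinase of SR splicing factors, stood at 0.067 in MIP/5FU and 0.027 in MIP101. RPRD1A exon 8a (81 nt) stood at 0.23 in MIP/5FU and 0.12 in MIP101, with 110 and 113 read equivalents. With the median of constitutive regions as the gene ratio, its index was 0.99 and it was not called.

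Lower in the clone were LPIN1 exon 8a (108 nt), of a phosphatidate phosphatase, at 0.14 of its gene in MIP/5FU and 0.41 in MIP101. UTX exon 14a (156 nt), of a histone H3 lysine demethylase, stood at 0.18 in MIP/5FU and 0.47 in MIP101. ARFIP1 exon 4a (96 nt), of a partner of ARF GTPases, stood at 0.18 in MIP/5FU and 0.45 in MIP101. WNK1 exon 12a (459 nt), of a kinase of ion transport, stood at 0.020 in MIP/5FU and 0.051 in MIP101, with 56.3 and 300.4 read equivalents. The exons of LPIN1, UTX and ARFIP1 had 15.3, 19.7 and 19.2 read equivalents in MIP/5FU and 86.6, 85.6 and 93.5 in MIP101. Their index intervals were -3.10 to -0.30, -2.80 to -0.30 and -2.72 to -0.21. These exons passed the coverage minimum only through MIP101, where they were high. CTNND1, SRPK1, RPRD1A, LPIN1, UTX and WNK1 lie outside the naming rule or were picked from the called exons after their values were seen.

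**Figure D5:**
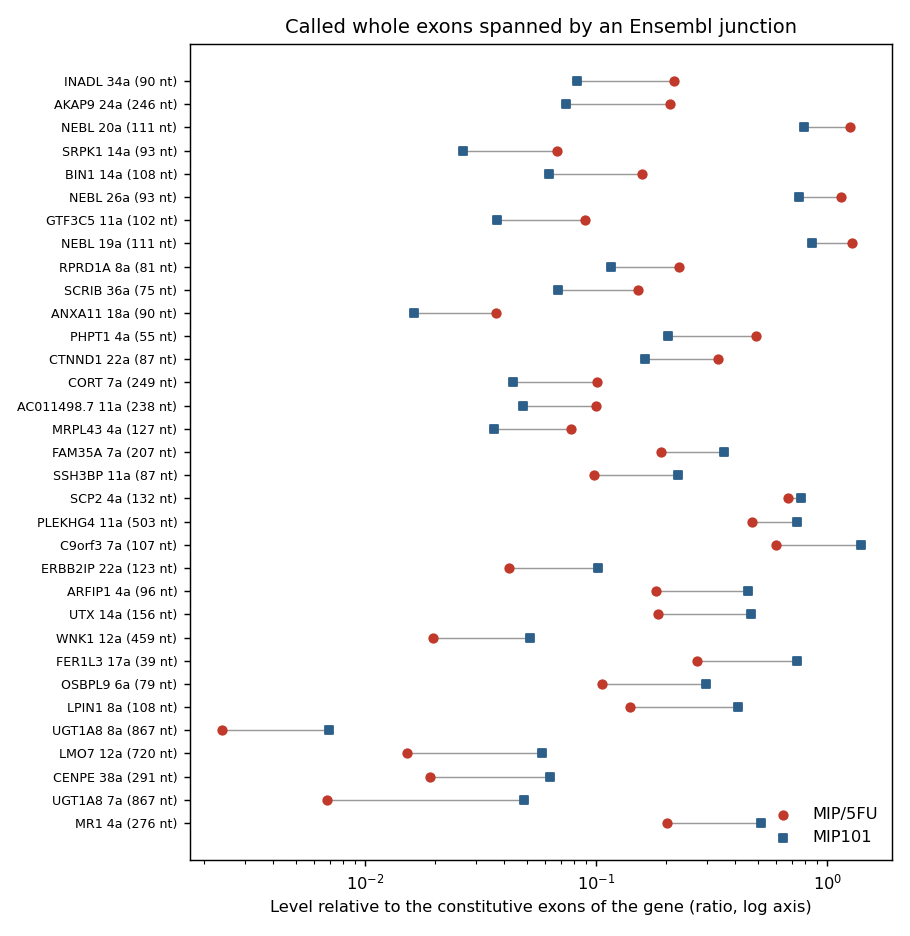
Level relative to the constitutive regions of the gene (ratio, log axis) in MIP/5FU (red circles) and MIP101 (blue squares) for 33 of the called whole exons that an Ensembl junction spans and that have a level in both; grey lines join the values of 1 exon, and labels give exon and length. Rows run by index, with exons higher in MIP/5FU at the top, and 16 lie above the first one that is lower, FAM35A exon 7a.

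Across the gene lists, which were written with earlier results of these data known, few members were called. The cytoskeleton and adhesion list had 14 of 626 called higher and 23 lower, beside 0.157% and 0.109% of all regions, and these were mainly the runs of LAMA3 and DST. The epithelial and mesenchymal splicing list, of genes whose exons are known to differ between these cell states, had 2 of 336 called higher and 0 lower. They were CTNND1 exon 22a and SCRIB exon 36a (75 nt), a gene that encodes a polarity scaffold. SCRIB exon 36a had levels of 0.15 in MIP/5FU and 0.068 in MIP101, and it passed the coverage minimum only through MIP/5FU. At 1.5-fold this list had 7 higher and 1 lower, beside 0.394% and 0.202% of all regions. MACF1 exon 50a, of an actin and microtubule linker, and LAS1L exon 9a had the next largest indices, 0.81 (0.22 to 1.40) and -0.98 (-2.46 to 0.19). ENAH exon 13a (63 nt), in the gene of an actin regulator, was covered at 0.37 of its gene in MIP/5FU and 0.40 in MIP101. In CD44, the 14 members had indices between -0.79 and 0.51, none called.

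In membrane traffic, ARFIP1 exon 4a was called lower and BIN1 exon 14a higher, of 220 members. PICALM exon 13a (150 nt) stood at 0.16 in MIP/5FU and 0.28 in MIP101, and VPS13A exon 70a had an index of 0.68. No member was called among 114 in apoptosis and survival, 214 in RNA-binding and splicing factors and 268 in kinases and small GTPase signalling. None was called among 321 in chromatin and transcription, 360 in DNA repair, replication and nucleotide supply, and 306 in ubiquitin and proteasome. Their median indices lay between -0.07 and -0.01, beside -0.01 over all regions. At the 0.266% called among all regions, fewer than 1 call would fall in each of these lists, and the count of 0 does not show that these exons were equal.

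The largest indices in those lists give the size of what was not called. In CASP10 exon 10a and MDM4 exon 5a they were -1.42 (-3.55 to 0.08) and -0.76 (-1.86 to 0.17). The initiator caspase gene CASP8 had 0.86 (0.43 to 1.28) in exon 12b and -0.72 (-1.16 to -0.30) in exon 14a. Among RNA-binding proteins, FUBP1 exon 21a had 0.86, QKI exons 7f and 6a had -0.63 and -0.52, and MBNL2 exon 7a had 0.53. FYN exon 12a (156 nt), of a SRC family kinase, stood at 0.47 of its gene in MIP/5FU and 0.63 in MIP101. TSC2 exon 26a, of a brake on mTOR, stood at 0.41 in MIP/5FU and 0.24 in MIP101. MAP2K5 exon 9a and CSNK1D exon 8b had indices of 0.55 and 0.54.

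TCF12, MBD1 and HDAC7 were among the chromatin genes with the largest indices, all above 0, and the intervals of MBD1 and HDAC7 include 0. TCF12 exon 16a (72 nt) was at 0.46 in MIP/5FU and 0.24 in MIP101, and MBD1 exon 19a (75 nt) at 0.25 in MIP/5FU and 0.13 in MIP101. HDAC7 exon 9a had an index of 0.68. In DNA repair and nucleotide supply, MLH3 exon 7a had -1.01 (-2.77 to 0.35), DPYD exon 15a 0.61 and BRCA1 exon 9a -0.47. Among ubiquitin genes, UBE4B exon 9a had -0.88, UBE2D2 exon 2a 0.68, NEDD4L exon 15a -0.60 (-1.23 to -0.02) and ITCH exon 7a -0.57. Every one of these was under 2-fold or had an interval that includes 0.

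Chosen for an index within 0.01 of 0, the 5 with the most read equivalents were MKI67 exon 13b, SRRM2 exon 11b, AHNAK exon 5c, SON exon 3g and HSPA8 exon 7b. MKI67 exon 13b (6737 nt), of the proliferation marker Ki-67, had 112703 read equivalents in MIP/5FU and 235113 in MIP101, with an interval of -0.02 to 0.02. At the coverage threshold, ICA1L exon 11a and MICA exon 4a were included with 2000 bases each, and CADPS exon 22a and SP100 exon 22a stayed out with 1999 and 1998.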

How the data were processed

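Gene and junction read counts, not normalized by the authors, and coverage signal summed over each exon region were used as deposited. The build is hg18 per the submitters' processing notes, with Ensembl release 53 features. Reads were paired 42-mers or 36-mers, with 10 cycles of PCR and no strand marking per the labels' protocols, so genes that overlap on both strands cannot be told apart. Alignment software: not given in the sources used here. The exon region tables hold no read counts, so coverage was divided by the mean bases per read, 39.8 in MIP/5FU and 40.4 in MIP101. The index adds 0.5 reads to each value. Its interval combines exact conditional binomial intervals of region and gene, where the gene had 10 or more reads per library. Genes that share reads with close copies are uncertain.

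Members and lists were chosen with earlier results of these data known. Named were the 10 highest and 10 lowest called members, the 10 largest differences of skipping share, up to 4 members per list, the 5 lowest levels per length class, 5 indices nearest 0, counts of 5 or fewer, and 2 regions on each side of the threshold. Exceptions are marked, and some genes that the rule names are not reported here. Tables were computed in Python 3.11.15 with scipy 1.17.1, pandas 2.3.3 and numpy 2.4.6, and plots were drawn with matplotlib 3.10.9.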

Additional observations from a re-analysis of the deposited data

How the results depend on the processing

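No paired analysis was possible because each line has 1 library, and for the same reason no library could be left out. Called members numbered 50 higher and 58 lower. With the median of constitutive regions as gene ratio there were 43 higher and 69 lower, 35 and 50 of them shared. Genes with fewer than 3 measured constitutive regions kept the main gene ratio in this setting. Calls in such genes, among them NALP12, AKAP7, MR1 and IFT172, could not change, so the shared counts include calls that were not put to the test. A minimum of 100 read equivalents left 27 higher. A coverage of at least 5000 left 23 higher and 24 lower. At 1.5-fold there were 82 higher and 92 lower, at an index of 2 there were 3 and 19, and with a 95% interval 91 were lower. The share called higher was 46.3%, and 38.4% with the median of constitutive regions. Members below 25% of their gene were 2.88% in MIP/5FU and 2.93% in MIP101 with the average coverage of the gene as denominator, and 3.80% and 3.70% among fully unmasked members. Skipping in Ensembl transcripts alone gave 17 members with more skipping, and every spanning junction, a setting chosen after seeing the data, gave 50 with more and 33 with less. Over the lists, 17 were called higher, and 35 at 1.5-fold. Where only a limit was made stricter or looser, the counts moved by that limit. For the other settings the cause was not tested. The remaining 28 recomputed summary values stayed within their limits, and the indices of the highest and lowest called members kept their sign and call in all 80 recomputations. For NALP12 the recomputation with constitutive regions as gene ratio only repeats the main value. A coverage minimum of 1000 gave the same 50 and 58, because the minimum of 50 read equivalents still applied.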
